A study of Mus musculus with 35 samples.

Results

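A set of 10 genes of the transforming growth factor beta (TGF-beta) and activin system were followed in irradiated mouse skin: the ligand genes Tgfb1, Tgfb2, Tgfb3, Inhba and Inhbb, the latent TGF-beta binding protein genes Ltbp1, Ltbp2 and Ltbp3, the TGF-beta-induced matrix gene Tgfbi, and Fst, which encodes the activin inhibitor follistatin. They were looked up by symbol, and all 10 were found among the 36106 genes of the table. Bulk RNA sequencing covered 35 samples of skin from 19 mice, all females of the inbred strain C57BL/6J and 10 weeks old. The mice fell into 5 groups, a sham group without radiation and 4 groups that were given 25 Gy on the skin of the left flank and sampled 1, 2, 3 or 4 weeks later. The samples fell into 9 groups: sham skin (n = 3), and radiated skin and control skin at each of weeks 1 to 4 (n = 4 each).

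No genotype other than the C57BL/6J strain was named, and no transgene was named. Radiated and control samples of a week share the numbers 1 to 4, and 35 samples came from 19 mice, so that equal week and number were read as equal mouse. Control skin is then skin of an irradiated animal, sham skin came from other animals, and each week was a different set of mice. The labels do not say from which body site control skin came or whether it was shaved. Where each mouse gave 1 sample per kind of skin, p-values measure the spread between mice. In bulk tissue, fewer cells of a type and less RNA per cell cannot be told apart.

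TGF-beta proteins are made as inactive complexes with their own propeptide, and the latent TGF-beta binding proteins tie these complexes to fibres of the extracellular matrix, from which integrins, proteases or thrombospondin can release the active ligand. Activin A, a dimer of the Inhba product, and activin B, a dimer of the Inhbb product, use related receptors and the same SMAD2 and SMAD3 transducers, and follistatin binds activins and keeps them from their receptors. In skin, both ligand families are known for roles in wound repair, inflammation and fibrosis, and activin A is made at high levels in healing wounds.

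Sequence totals ran from 17362853 to 28487885 estimated counts per library, and levels are given as CPM, counts per 1e+06 counts of a library scaled by TMM factors (trimmed mean of M values). Differences were tested with edgeR's quasi-likelihood F test, with Benjamini-Hochberg adjustment over all genes tested, and a gene was called at an adjusted p under 0.05. All 8 keratinocyte and all 8 fibroblast markers listed for the check of the tissue were above 0 in every library. The markers of 8 skeletal muscle genes summed to between 18508 and 35295 CPM in control skin of week 3 and to between 3160 and 8308 CPM in radiated skin of that week. Markers of the growing hair follicle (9 genes) summed to between 2184 and 33642 CPM in sham skin. Outside sham skin 6 libraries were above 1000 CPM of these hair markers, 2 of them radiated (week 3 replicate 4 and week 4 replicate 3) and 4 of them control (week 1 replicates 1 and 4, week 2 replicate 1 and week 3 replicate 4).

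The promoters of the 2 ligand genes that rose most and of the 2 genes that held a searched motif are shown first. RefSeq start sites on GRCm38.p6 gave windows for 8 of the 10 genes. The 250 bases before the start are chr13:16011601-16011850 on the plus strand for Inhba, chr7:25686752-25687001 on the plus strand for Tgfb1, chr1:186705990-186706239 on the minus strand for Tgfb2 and chr17:75178531-75178780 on the plus strand for the second of 2 start sites of Ltbp1, which lies inside the gene. Capitals mark the letters CAGACA or their reverse complement TGTCTG, a sequence that contains the short element bound by SMAD3 and SMAD4.
Inhba: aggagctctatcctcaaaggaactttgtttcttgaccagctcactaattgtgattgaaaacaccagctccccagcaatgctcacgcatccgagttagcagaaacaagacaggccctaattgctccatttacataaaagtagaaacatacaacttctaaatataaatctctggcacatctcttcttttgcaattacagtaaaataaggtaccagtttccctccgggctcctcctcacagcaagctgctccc
Tgfb1: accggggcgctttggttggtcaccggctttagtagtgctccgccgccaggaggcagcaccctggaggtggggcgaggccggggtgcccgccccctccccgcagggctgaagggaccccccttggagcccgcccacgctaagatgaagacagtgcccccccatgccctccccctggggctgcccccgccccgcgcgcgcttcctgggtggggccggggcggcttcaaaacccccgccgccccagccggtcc
Tgfb2: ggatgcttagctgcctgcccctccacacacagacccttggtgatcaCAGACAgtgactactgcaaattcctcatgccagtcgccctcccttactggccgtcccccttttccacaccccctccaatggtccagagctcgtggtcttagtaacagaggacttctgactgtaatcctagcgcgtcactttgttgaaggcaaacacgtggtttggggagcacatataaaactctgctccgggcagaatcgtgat
Ltbp1, second start: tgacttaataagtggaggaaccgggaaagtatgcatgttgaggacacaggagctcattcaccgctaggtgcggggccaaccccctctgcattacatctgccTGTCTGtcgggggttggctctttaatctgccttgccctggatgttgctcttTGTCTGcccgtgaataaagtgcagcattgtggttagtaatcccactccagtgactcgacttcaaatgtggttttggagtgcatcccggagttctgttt

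CAGACA was searched on both strands and was found in 2 of the 8 genes with a window. It lay at 1 place in the Tgfb2 window, 204 bases before the start, and at 2 places in the window of the second Ltbp1 start, 149 and 98 bases before it. Of 32851 windows of the same length, 17.1% held it. The SMAD palindrome GTCTAGAC, found in 0.167% of the windows, and the AP-1 letters TGANTCA, found in 6.75%, were in none of the windows of the 8 genes. The Inhba window had a G and C content of 43.2% and the Tgfb1 window one of 75.2%.

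By GENCODE M21 on GRCm38, Inhba (ENSMUSG00000041324) lies on chromosome 13 from 16011851 to 16031621 and Tgfb1 (ENSMUSG00000002603) on chromosome 7 from 25687002 to 25705077. Of the other ligand genes, Tgfb2 lies on chromosome 1 from 186622792 to 186705989, Tgfb3 on chromosome 12 from 86056745 to 86079041 and Inhbb on chromosome 1 from 119415465 to 119422248. Ltbp1 lies on chromosome 17 from 75005568 to 75392512, Ltbp2 on chromosome 12 from 84783212 to 84876532 and Ltbp3 on chromosome 19 from 5740904 to 5758532. Tgfbi and Fst are both on chromosome 13, from 56609523 to 56639562 and from 114452290 to 114458951. Counts are per whole gene and do not separate exons, introns or untranslated regions. Inhba overlaps B230303A05Rik and Gm48444 on the opposite strand, over 11573 and 6240 bases of its span, and Tgfb3 overlaps Ttll5 on the opposite strand over 5149 bases. These spans include introns, and the overlap between exons alone was not measured. Whether the counting used strand is not given in the sources used here, and reads of such partners cannot be told apart without it.

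To compare the genes with each other, levels were divided by the length of the exons of each gene. In sham skin Tgfbi stood highest, at 39.9 ± 13.4 CPM per kb (SD, n = 3), and Ltbp2 lowest, at 2.61 ± 0.718 CPM per kb. The spread of Tgfbi overlapped that of Inhbb (21.6 ± 15.1 CPM per kb). That of Ltbp2 overlapped the spread of Tgfb2 (5.18 ± 2.37 CPM per kb). Inhba, at 6.13 ± 1.35 CPM per kb, ranked in the lower part of the list in sham skin, beside Ltbp1 at 6.09 ± 1.65 CPM per kb, and these 2 levels did not differ beyond their spread. In radiated skin of week 4 the order had changed at the top. There Tgfbi stood at 109 ± 12.9 CPM per kb (SD, n = 4) and Inhba at 89.2 ± 25.5 CPM per kb, 2 levels whose spreads overlap. Tgfb1 followed at 30.4 ± 5.63 CPM per kb, with Fst at 27.1 ± 7.98 and Inhbb at 26.9 ± 4.24 CPM per kb next to it, and these 3 did not differ beyond their spread. In control skin of week 4, Inhba was the lowest of the 10 genes, at 2.93 ± 1.19 CPM per kb. Its spread overlapped those of Ltbp2 (4.23 ± 0.449 CPM per kb) and Tgfb2 (4.77 ± 1.53 CPM per kb).

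Inhba, which encodes the subunit of activin A, showed the widest change. Radiated skin held 23.1, 25.4, 17.1 and 33.0 CPM at week 1 and 15.9, 16.4, 28.9 and 80.6 CPM at week 2, against 23.5, 11.1, 17.8 and 18.8 CPM in control skin of week 1 and 40.8, 11.0, 15.4 and 18.8 CPM in control skin of week 2. At week 3 the radiated libraries reached 749, 487, 518 and 141 CPM, against 16.2, 15.7, 12.1 and 21.2 CPM in control skin. At week 4 they held 509, 527, 437 and 807 CPM, against 29.3, 19.2, 12.3 and 14.0 CPM. Radiated and control skin overlapped at weeks 1 and 2 and stood apart at weeks 3 and 4, where the lowest radiated library was above every control library. Replicate 4 was the highest radiated library of week 2 and the lowest of week 3.

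The difference in Inhba was 29.7-fold at week 3, or 4.89 on the log2 scale (SE 0.48, adjusted p = 0.000732 by edgeR), and 30.7-fold at week 4, or 4.94 on the log2 scale (SE 0.32, adjusted p = 4.17e-06). The gene stayed past the threshold in all 8 fits of each of these weeks that left out 1 library, and in a fit of all 35 libraries, in which every group shares 1 estimate of the spread. At week 1 the fitted log2 change was 0.47 (SE 0.25, adjusted p = 0.412). At week 2 it was 0.73 (SE 0.57, adjusted p = 0.603), and without replicate 4 of radiated skin it was -0.09, so that the week 2 value rests on that library.

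Across all 9 groups, the mean level of Inhba was highest in radiated skin of week 4, at 570.0 ± 163 CPM (SD, n = 4), and of week 3, at 474 ± 251 CPM, and these 2 did not differ beyond their spread. Sham skin came next at 39.2 ± 8.64 CPM (SD, n = 3), then radiated skin of week 2 at 35.5 ± 30.7 CPM and of week 1 at 24.6 ± 6.59 CPM. The 4 control groups were lowest, with means from 16.3 ± 3.75 CPM at week 3 to 21.5 ± 13.3 CPM at week 2. All of the groups below the highest pair overlapped their neighbours in this order.

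**Figure D1:**
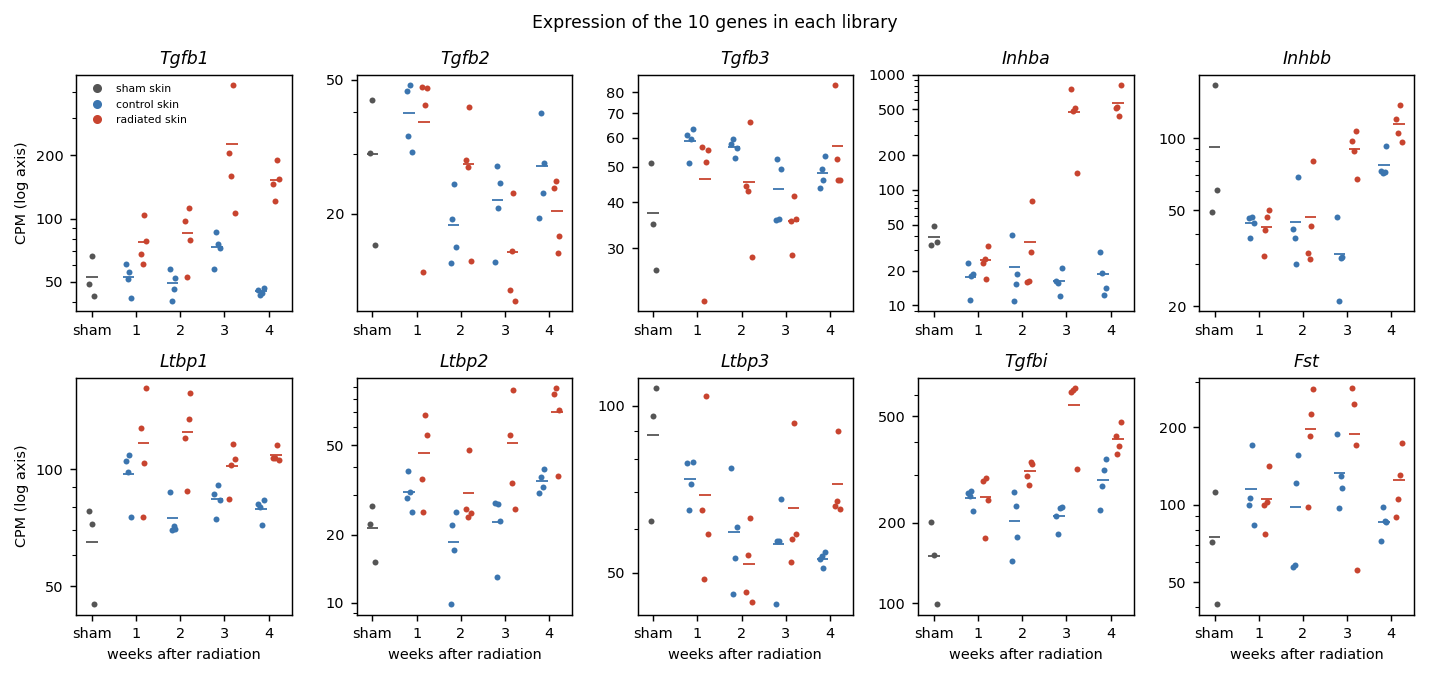
Level of each of the 10 genes in each library, in CPM on a log axis, by weeks after radiation, with points for libraries (grey sham n = 3, red radiated and blue control n = 4 per week) and short bars for group means. For Inhba, radiated libraries of weeks 3 and 4 lie between 141 and 807 CPM, above every other library of the study, while Tgfb2 and Tgfb3 of radiated and control skin overlap in every week.

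Tgfb1, the TGF-beta isoform best known from platelets and immune cells, was higher in radiated skin than in the control skin of the same number in 4 of 4 pairs in each of the 4 weeks. Radiated skin held 67.5, 61.1, 104 and 78.4 CPM at week 1, against 61.1, 51.5, 55.9 and 42.0 CPM in control skin. At week 2 the values were 97.2, 52.7, 113 and 79.0 CPM against 57.5, 40.7, 46.4 and 52.2 CPM. These ranges still touched or overlapped, and neither week passed the test, with log2 fold changes of 0.57 (SE 0.19, adjusted p = 0.253 by edgeR) and 0.79 (SE 0.23, adjusted p = 0.18).

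At week 3 Tgfb1 stood at 206, 159, 432 and 107 CPM in radiated skin, against 57.3, 86.5, 75.8 and 72.3 CPM. At week 4 it stood at 146, 122, 190.4 and 154 CPM, against 45.8, 43.4, 44.4 and 46.8 CPM. In both weeks every radiated library was above every control library, and replicate 3 was the highest radiated library. The difference was 3.16-fold at week 3, or 1.66 on the log2 scale (SE 0.38, adjusted p = 0.0124 by edgeR), and 3.41-fold at week 4, or 1.77 on the log2 scale (SE 0.13, adjusted p = 6.76e-06). Control skin of week 4 varied little, with a mean of 45.1 ± 1.48 CPM (SD, n = 4), against 153 ± 28.4 CPM in radiated skin.

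The other TGF-beta isoforms gave no call in any week. Tgfb2, which is needed for the growth and cycling of hair follicles, was at 11.9, 15.5, 23.0 and 11.1 CPM in radiated skin of week 3 and at 14.4, 27.8, 20.8 and 24.7 CPM in control skin. Its log2 fold changes ran from -0.48 (SE 0.28, adjusted p = 0.229 by edgeR) at week 3 to 0.60 (SE 0.30, adjusted p = 0.411) at week 2. Tgfb3, the isoform tied to scar-poor healing, was at 35.6, 28.8, 41.7 and 36.1 CPM against 35.9, 52.6, 36.0 and 49.5 CPM at week 3. Its log2 fold change was 0.25 (SE 0.19, adjusted p = 0.305) at week 4 and between -0.34 and -0.26 in the earlier weeks. The radiated and control libraries of both genes overlapped in all 4 weeks.

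A ratio of 2 genes within a library does not depend on how libraries are scaled, and it was compared with an exact two-sided permutation test over 70 relabellings of 4 against 4 libraries, whose smallest possible p is 0.0286. The log2 ratio of Tgfb3 to Tgfb1 counts in radiated skin was -0.82 ± 0.56 (SD, n = 4) at week 1 and -2.48 ± 0.74 at week 3. In control skin it was 0.17 ± 0.29 at week 1 and -0.75 ± 0.23 at week 3. Sham skin held 0.07, -0.93 and -0.70. Its range overlapped control skin in every week and radiated skin at weeks 1, 2 and 4, and lay above radiated skin of week 3. Radiated minus control skin gave -0.99, -1.13, -1.73 and -1.55 at weeks 1, 2, 3 and 4. Each of these 4 differences reached the smallest possible exact p of 0.0286, 0.0381 after adjustment over the 8 ratio tests, and in every week all 4 radiated libraries were below all 4 control libraries. The adjustment covers these 8 tests alone, and ratios of other gene pairs were not tested. Taken as pairs from 1 mouse, the ratio was lower in radiated skin in 4 of 4 pairs in every week, but a sign-flip test over 4 pairs cannot pass the threshold, since 2 of its 16 patterns are always as extreme.

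Inhbb, the subunit of activin B, was at 32.4, 41.3, 46.9 and 50.3 CPM in radiated skin of week 1 and at 46.7, 38.5, 47.0 and 44.4 CPM in control skin, with ranges that overlapped. At week 3 it was at 97.0, 88.4, 107 and 67.8 CPM in radiated skin, against 47.2, 21.1, 31.7 and 32.1 CPM. At week 4 it was at 120.3, 105, 137 and 96.3 CPM, against 73.1, 71.9, 72.1 and 92.8 CPM. Radiated libraries were above all control libraries in both of these later weeks, and the control libraries were themselves higher at week 4 than at week 3.

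The rise of Inhbb was 2.78-fold at week 3, or 1.48 on the log2 scale (SE 0.24, adjusted p = 0.00319 by edgeR), and 1.48-fold at week 4, or 0.57 on the log2 scale (SE 0.13, adjusted p = 0.00599). In the fit of all 35 libraries the week 4 call was lost (adjusted p = 0.153). In sham skin Inhbb was at 49.1, 166 and 60.8 CPM, so that replicate 2 was above all radiated libraries.

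Fst, the inhibitor of activins, covered a narrower range than Inhba, with group means from 75.1 ± 35.6 CPM in sham skin (SD, n = 3) to 197 ± 77.2 CPM in radiated skin of week 2 (SD, n = 4). As for Inhba, radiated replicate 4 was the highest radiated library of weeks 2 and 4 and the lowest of week 3. At week 2, radiated skin held 98.4, 184, 225 and 282 CPM and control skin 57.5, 58.5, 121 and 156 CPM, higher in 4 of 4 pairs but with overlap. Its log2 fold change of 1.00 (SE 0.39, adjusted p = 0.294 by edgeR) missed the threshold without the pairing. With the replicate block, that is with the mouse number in the model, it was 1.04 (adjusted p = 0.0215), the only one of the 10 genes called there, where 3.7% of all genes tested were called. In that fit 6 of 6 macrophage, 4 of 8 fibroblast and 2 of 3 tested neutrophil markers were called higher too, and 6 of 8 skeletal muscle markers lower. Macrophage markers summed to 378 to 1667 CPM in radiated and 155 to 377 CPM in control skin of week 2, and the part of these markers in the Fst call was not tested.

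At week 3 Fst was at 282, 245, 171 and 55.9 CPM in radiated skin, against 188, 97.4, 129 and 116 CPM. Replicate 4 of radiated skin was the lowest of the 8 libraries. Among radiated libraries of that week it had the highest hair (1137.5 CPM) and keratinocyte (24688 CPM) marker sums. It had the lowest macrophage (779 CPM) and neutrophil (100.5 CPM) sums. The fitted log2 change was 0.54 (SE 0.42, adjusted p = 0.364 by edgeR), and 0.85 (adjusted p = 0.0316) without that library. At week 4 Fst was at 89.7, 105, 129.9 and 173 CPM, against 72.0, 97.9, 86.1 and 85.8 CPM. It rose 1.46-fold there (log2 fold change 0.55, SE 0.19, adjusted p = 0.0364 by edgeR), and the call was lost in 5 of the 8 fits that left out 1 library, those without radiated replicate 3 or 4 or control replicate 1, 3 or 4, with adjusted p from 0.0636 to 0.0811. Radiated replicate 3 of week 4 is the library with high hair markers. The fit of all 35 libraries also lost it (adjusted p = 0.287).

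The log2 ratio of Inhba to Fst counts put the 2 side by side. In radiated skin it was -2.10 ± 0.41 (SD, n = 4) at week 1, -2.72 ± 0.70 at week 2, 1.33 ± 0.25 at week 3 and 2.20 ± 0.32 at week 4. In control skin its 16 values lay between -3.53 and -0.495, and in sham skin it was -1.11, -1.19 and -0.23. The ratio was thus below 0 in every control and sham library and in radiated skin of weeks 1 and 2, and above 0 in all 8 radiated libraries of weeks 3 and 4. The exons of Inhba cover 6390 bases and those of Fst 4589 bases, so that a ratio of counts does not order the levels of the 2 genes per length. The difference between radiated and control skin was 0.59 at week 1 (exact permutation p = 0.2, adjusted 0.229) and -0.49 at week 2 (exact permutation p = 0.6, adjusted 0.6). It was 4.34 at week 3 and 4.46 at week 4, each at the smallest possible exact p of 0.0286, adjusted 0.0381.

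**Figure D2:**
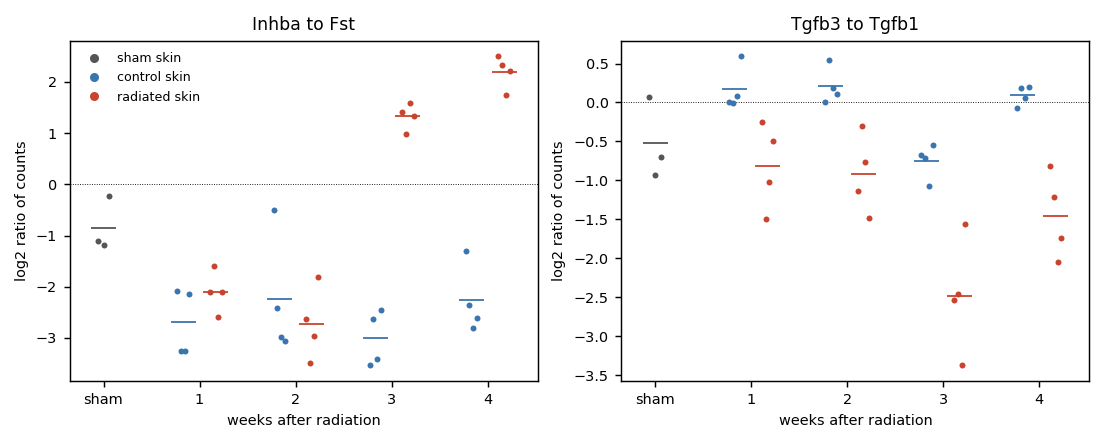
Log2 ratio of the counts of Inhba to Fst and of Tgfb3 to Tgfb1 in each library, by weeks after radiation, with points for libraries (grey sham, red radiated, blue control) and short bars for group means; the dotted line marks equal counts. Inhba to Fst in radiated skin moves from means of -2.10 and -2.72 at weeks 1 and 2 to 1.33 and 2.20 at weeks 3 and 4, and Tgfb3 to Tgfb1 in radiated skin lies below control skin in each week.

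Tgfbi encodes a secreted matrix protein that binds collagens and integrins and is named for its induction by TGF-beta. It was at 299, 276, 336 and 331 CPM in radiated skin of week 2, against 143, 260.1, 231 and 177 CPM in control skin. At week 3 it was at 614, 627, 634 and 317 CPM, against 211, 181, 226 and 229 CPM. At week 4 it was at 419.5, 361, 385 and 474 CPM, against 223, 273, 313 and 344 CPM. Radiated libraries were above all control libraries in each of these 3 weeks, with replicate 4 at week 3 far below the other radiated libraries.

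The week 2 difference in Tgfbi did not pass the test (log2 fold change 0.61, SE 0.20, adjusted p = 0.214 by edgeR). At week 3 it was 2.64-fold, or 1.40 on the log2 scale (SE 0.23, adjusted p = 0.00302), and at week 4 it was 1.43-fold, or 0.51 on the log2 scale (SE 0.14, adjusted p = 0.0147). The week 4 call was lost in the fit of all 35 libraries (adjusted p = 0.0568).

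Of the latency proteins, Ltbp2, which associates with fibrillin fibres and does not bind TGF-beta itself, gave the larger fold changes at weeks 3 and 4. At week 3 it was at 55.7, 34.0, 87.7 and 26.0 CPM in radiated skin, against 27.6, 13.0, 27.5 and 22.9 CPM. At week 4 it was at 84.1, 89.1, 36.3 and 71.2 CPM, against 30.7, 36.0, 32.6 and 39.0 CPM. In both weeks it was higher in 4 of 4 pairs, with 1 radiated library of each week (replicate 4 at week 3 and replicate 3 at week 4) inside the control range. The fitted log2 change was 1.19 (SE 0.39, adjusted p = 0.0458 by edgeR) at week 3 and 1.03 (SE 0.24, adjusted p = 0.00622) at week 4. The week 3 call was lost in 6 of the 8 fits that left out 1 library, those without radiated replicates 1 or 3 or any of the control replicates 1 to 4, with adjusted p up to 0.105.

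Ltbp1, which carries latent TGF-beta to the matrix, was at 120.4, 87.7, 135 and 157 CPM in radiated skin of week 2, against 87.5, 69.9, 71.5 and 70.3 CPM, with no overlap and no call (log2 fold change 0.74, SE 0.19, adjusted p = 0.154 by edgeR). At week 4 it was at 107, 107, 116 and 106 CPM, against 81.2, 79.9, 71.7 and 83.4 CPM, without overlap. This was a 1.38-fold rise (log2 fold change 0.47, SE 0.08, adjusted p = 0.000829). At week 3 the fitted log2 change was 0.31 (SE 0.13, adjusted p = 0.11), and 0.54 (adjusted p = 0.0229) with libraries scaled by their totals, a scaling that moved the median of all genes by 0.236.

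Ltbp3, a latency protein best known from bone and teeth, was at 65.9, 67.3, 90.1 and 65.2 CPM in radiated skin of week 4, against 52.8, 53.6, 50.9 and 54.4 CPM, without overlap. It rose 1.37-fold (log2 fold change 0.45, SE 0.11, adjusted p = 0.00809 by edgeR) and lost the call in the fit of all 35 libraries (adjusted p = 0.0939). In the earlier weeks its radiated and control libraries overlapped, with log2 fold changes between -0.20 (week 2, adjusted p = 0.68) and 0.24 (week 3, adjusted p = 0.427).

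Counted together, 0 of the 10 genes were called at week 1, where edgeR called 0% of 17578 genes, 2477 of them with an unadjusted p under 0.05 (DESeq2 also called 0 of the 10, and 2.37% of all genes). At week 2, 0 of the 10 were called, where 0.00577% of all genes were called and 2388 genes had an unadjusted p under 0.05. DESeq2 called 2 of the 10 there, and 4.23% of all genes. At week 3, 5 of the 10 were called, all higher: Inhba, Tgfb1, Inhbb, Tgfbi and Ltbp2. Of all genes tested that week 27.2% were called, and 13.6% were called higher. At week 4, 8 of the 10 were called, all higher, the exceptions being Tgfb2 and Tgfb3. Of all genes tested that week 48.4% were called, and 24.2% were called higher. The median log2 fold change of the 10 genes was -0.01, 0.66, 0.87 and 0.53 at weeks 1 to 4, beside medians over all genes of 0.05, -0.0025, 0.08 and 0.02. The fit of all 35 libraries called 4 of the 10 at week 4 (Inhba, Tgfb1, Ltbp1 and Ltbp2), and 35% of all genes. Scaling by totals gave 4054 genes higher and 1270 lower at week 3, against 2408 and 2397, or 30.2% of all genes in both directions, and called 6 of the 10 genes, all higher. Without the libraries above 1000 CPM of hair markers, 5 of the 10 were called at week 3, where 21.1% of all genes were, and 7 at week 4, where 47.3% were.

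**Figure D3:**
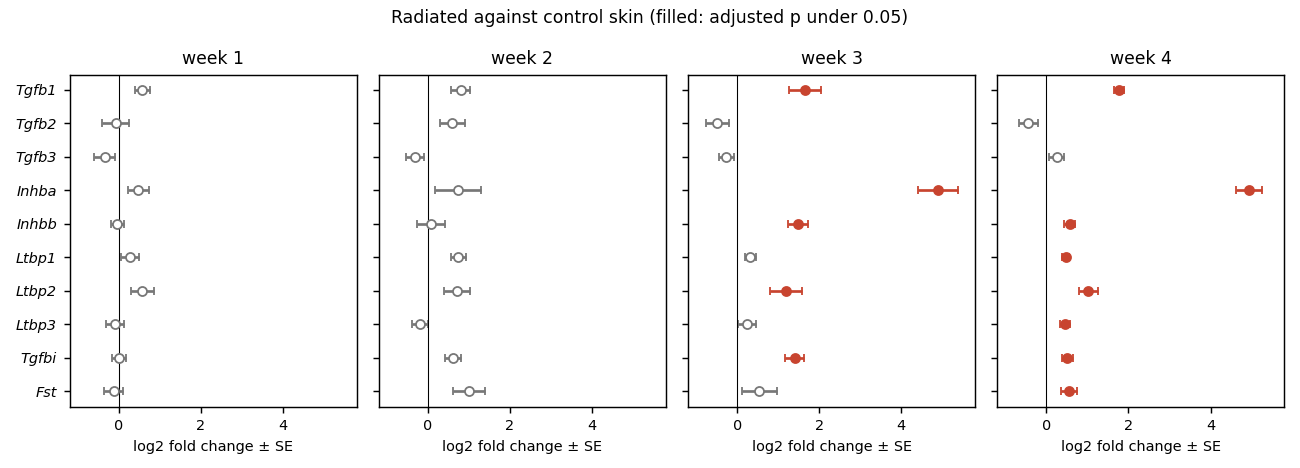
Log2 fold change of radiated against control skin for each of the 10 genes, with bars of 1 SE, in 4 panels for weeks 1 to 4 (n = 4 libraries per group); filled points have an adjusted p under 0.05 by edgeR. No point is filled at weeks 1 and 2, 5 are filled at week 3 and 8 at week 4, and Inhba lies at 4.89 and 4.94 in the later weeks.

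Whether the radiated minus control difference varied over the 4 weeks was tested by fitting the 32 radiated and control libraries together. The F test of the week by radiation terms called 4 of the 10 genes, where 15.6% of all genes were called: Inhba (adjusted p = 2.02e-05 by edgeR), Tgfbi (adjusted p = 0.00589), Inhbb (adjusted p = 0.0138) and Tgfb1 (adjusted p = 0.0487). Tgfb2, Tgfb3, Ltbp1, Ltbp2, Ltbp3 and Fst were not called (adjusted p from 0.252 to 0.738). The Tgfb1 call was lost with the replicate block (adjusted p = 0.0546, where 15.8% of all genes were called), without a filter on low counts (adjusted p = 0.0554) and without any one of the numbers 1 to 4, which leave 24 libraries (adjusted p from 0.0744 to 0.307). Inhbb lost the call without numbers 1, 2 or 3 (adjusted p up to 0.144) and Tgfbi without numbers 2 or 3 (adjusted p up to 0.105), while Inhba stayed past the threshold in every such fit. These fits of 24 libraries called fewer genes in general, 4.97% to 9.2% of all genes against 15.6%.

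Between weeks 2 and 3 the radiated minus control difference grew by 4.17 on the log2 scale for Inhba (SE 0.68, adjusted p = 0.00118 by edgeR) and by 1.40 for Inhbb (SE 0.37, adjusted p = 0.0211). These were the 2 of the 10 genes called for that step, where 6.9% of all genes were called. None of the 10 passed for the step from week 1 to 2, where 0% of all genes were called, or from week 3 to 4, where 0.419% were. The Inhba difference changed by 0.08 from week 3 to 4 (SE 0.65, adjusted p = 0.979).

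Within radiated skin alone, 4 of the 10 genes varied over the weeks, where 23.3% of all genes did: Inhba (adjusted p = 8.22e-05 by edgeR), Inhbb (adjusted p = 0.00181), Tgfbi (adjusted p = 0.00504) and Tgfb1 (adjusted p = 0.00982). Tgfb2, Tgfb3, Ltbp1, Ltbp2, Ltbp3 and Fst were not called (adjusted p from 0.075 to 0.723). Tgfb1 lost this call without number 1 or 2 (adjusted p up to 0.0639), and Tgfbi without number 2 (adjusted p = 0.0677). Fits without a number called 10.9% to 17.4% of all genes. All 4 genes rose from week 2 to 3 in radiated skin, by 3.75 (adjusted p = 0.000993), 0.95 (adjusted p = 0.0227), 0.83 (adjusted p = 0.016) and 1.42 (adjusted p = 0.0133) on the log2 scale in the same order, a step at which 18% of all genes were called. None of the 10 was called in radiated skin from week 1 to 2, where 0.0213% of all genes were, or from week 3 to 4, where 0.0373% were.

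Control skin was not constant either, and 4 of the 10 genes varied over its weeks, where 23.9% of all genes did: Tgfb1 (adjusted p = 0.00734 by edgeR), Inhbb (adjusted p = 0.00865), Tgfb2 (adjusted p = 0.0166) and Tgfb3 (adjusted p = 0.039). Tgfb2 fell by 1.09 on the log2 scale from week 1, with 46.3, 34.1, 48.1 and 30.5 CPM, to week 2, with 14.3, 19.3, 24.6 and 15.9 CPM (adjusted p = 0.0191). From week 3 to 4 Tgfb1 fell by 0.72 (adjusted p = 0.00273) and Inhbb rose by 1.21 (adjusted p = 0.00274) in control skin. Of all genes, 5.34% were called for the first of these steps and 21.2% for the last. Cell type markers moved in control skin too. Fibroblast markers summed to 3479 to 6245 CPM at week 1 and 1663 to 2988 CPM at week 2. Macrophage markers summed to 301 to 843 CPM at week 3 and 178 to 266 CPM at week 4. Skeletal muscle markers summed to 18508 to 35295 and 1524 to 22989 CPM in those weeks, and keratinocyte markers to 14968 to 20061 and 22302 to 24914 CPM. Their part in these changes was not tested. The F test call in control skin was lost for Tgfb1 and Inhbb without number 2 or 3 (adjusted p up to 0.0909 and 0.0647), for Tgfb2 without number 3 or 4 (up to 0.0933) and for Tgfb3 without any one of the 4 numbers (up to 0.272). Fits of control skin without a number called 6.74% to 24.8% of all genes. Inhba, Ltbp1, Ltbp2, Ltbp3, Tgfbi and Fst did not pass in control skin (adjusted p from 0.052 for Ltbp2 to 0.796 for Inhba).

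Sham skin served as a second reference, shared by all of the comparisons below. Inhba was at 33.2, 49.1 and 35.2 CPM in sham skin, below every radiated library of weeks 3 and 4. Against sham, it was 12.5-fold higher in radiated skin at week 3 (log2 fold change 3.64, SE 0.54, adjusted p = 0.00648 by edgeR) and 15.0-fold higher at week 4 (log2 fold change 3.91, SE 0.28, adjusted p = 0.000141). Tgfb1 was at 48.8, 66.7 and 42.7 CPM in sham skin, and its log2 fold change in radiated skin was 2.14 at week 3 (SE 0.47, adjusted p = 0.0182) and 1.58 at week 4 (SE 0.21, adjusted p = 0.00126). The week 3 call of Tgfb1 was lost without any one of the 3 sham libraries (adjusted p up to 0.0668).

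Against sham skin, 0 of the 10 genes were called in radiated skin at week 1 (1.75% of all genes called), 1 at week 2 (5.06%), 3 at week 3 (18.2%) and 5 at week 4 (26.7%), all higher. Among all genes, 2.16%, 10.4% and 15.2% were called higher at weeks 2, 3 and 4. Tgfbi, at 200.2, 151 and 99.5 CPM in sham skin, was the gene called at week 2 (log2 fold change 1.05, SE 0.24, adjusted p = 0.0401 by edgeR), a call lost without radiated replicate 2, 3 or 4 or sham replicate 2 or 3 (adjusted p from 0.0596 to 0.129). It was called again at week 3 (1.91, adjusted p = 0.0101) and week 4 (1.49, adjusted p = 0.00282). Ltbp2 (1.75, adjusted p = 0.00565) and Ltbp1 (0.78, adjusted p = 0.017) joined at week 4. Tgfb2, Tgfb3, Inhbb, Ltbp3 and Fst were not called against sham in any week, and their radiated libraries overlapped sham skin in every week. Their log2 fold changes over the 4 weeks ran from -0.93 to 0.31 for Tgfb2, -0.03 to 0.65 for Tgfb3, -1.12 to 0.36 for Inhbb, -0.77 to -0.25 for Ltbp3 and 0.48 to 1.39 for Fst, with adjusted p from 0.0757 upwards by edgeR.

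Hair markers also differed between radiated and sham skin, with 9, 9, 5 and 4 of 9 called lower than in sham skin at weeks 1 to 4, and sums of 25 to 5869 CPM over the 16 radiated libraries against 2184 to 33642 CPM in sham skin. Macrophage markers (6 of 6) and neutrophil markers (5 of 5 tested) were called higher than in sham skin at both weeks 3 and 4. The macrophage markers summed to 157 to 332 CPM in sham skin, 779 to 2096 CPM in radiated skin of week 3 and 1031 to 1550 CPM in that of week 4, and the neutrophil markers to 8 to 10, 100 to 749 and 205 to 436 CPM. Fibroblast markers were called higher in 1, 3 and 7 of 8 genes at weeks 2, 3 and 4, with sums of 1691 to 3840 CPM in sham skin and 7180 to 13349 CPM in radiated skin of week 4. Endothelial markers were higher in 3 and 6 of 6 genes at weeks 3 and 4, with sums of 107 to 178 CPM in sham skin and 432 to 574 CPM at week 4. Skeletal muscle markers were lower in 1 and 7 of 8 genes at weeks 3 and 4, with sums of 7329 to 19210 CPM in sham skin and 1916 to 4366 CPM at week 4. Platelet markers were higher in 3 of 5 tested genes at week 3 and 2 of 4 at week 4, with sums of 11 to 14 CPM in sham skin, 24 to 94 CPM at week 3 and 23 to 45 CPM at week 4. Sebaceous gland markers were lower in 1, 3 and 2 of 5 tested genes at weeks 2, 3 and 4. Keratinocyte markers were lower in 1 of 8 genes at week 3, and 1 was higher and 3 lower at week 4. The part of these markers in the calls against sham skin was not tested.

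Control skin was also compared with sham skin, and Inhba was lower there. It was called at week 1 (log2 fold change -1.14, SE 0.25, adjusted p = 0.0428 by edgeR) and at week 3 (-1.28, SE 0.22, adjusted p = 0.0128), as the only one of the 10 genes, where 4.92% and 11.4% of all genes were called, 1.65% and 6.19% lower. It was not called at week 2 (-0.88, adjusted p = 0.255) or week 4 (-1.08, adjusted p = 0.0841), where 0 of the 10 genes, and 2.44% and 3.65% of all genes, were called. Control libraries of weeks 1, 3 and 4 were all below the 3 sham libraries. The week 1 call was lost without control replicate 2, 3 or 4 or sham replicate 2 or 3 (adjusted p from 0.0888 to 0.117), and the week 3 call was kept in 7 of 7 such fits and lost in the fit of all 35 libraries (adjusted p = 0.0815). Low Inhba was not particular to control skin. Radiated libraries of week 1 were also all below the sham libraries, at 17.1 to 33.0 against 33.2 to 49.1 CPM, without a call.

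Of the 9 genes not called between control and sham skin, Inhbb at week 3 (-1.49, adjusted p = 0.0508 by edgeR) and Ltbp3 at week 4 (-0.75, adjusted p = 0.0535) came nearest to the threshold, both without overlap. Over the 4 weeks log2 fold changes ran from -1.49 to -0.26 for Inhbb and from -0.75 to -0.27 for Ltbp3. They ran from -0.24 to 0.46 for Tgfb1, -0.71 to 0.40 for Tgfb2, 0.20 to 0.64 for Tgfb3, 0.19 to 0.57 for Ltbp1, -0.22 to 0.68 for Ltbp2, 0.42 to 0.93 for Tgfbi and 0.18 to 0.81 for Fst. Several marker lists differed between control and sham skin too. Hair markers were called lower in 0, 0, 5 and 9 of 9 genes at weeks 1 to 4, with sums of 2184 to 33642 CPM in sham skin and 48 to 6747 CPM over the 16 control libraries. Skeletal muscle markers were called higher in 6, 6, 5 and 0 of 8 genes at weeks 1 to 4, with sums of 7329 to 19210 CPM in sham skin and 25472 to 40928 CPM in control skin of week 1 and 18508 to 35295 CPM in that of week 3. At week 1, 3 of 6 endothelial, 3 of 6 adipocyte and 2 of 8 fibroblast markers were also called higher and 2 of 6 sebaceous gland markers lower. At week 3, 2 of 8 fibroblast and 1 of 6 macrophage markers were higher and 2 of 5 tested sebaceous gland markers lower. The part of these markers in the Inhba difference was not tested.

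Other genes of the pathway were counted from lists of 62 genes, of which 58 or 59 were tested, depending on the week. None was called at weeks 1 and 2, and with the replicate block 8 were higher and 1 lower at week 2, where that fit called 3.7% of all genes. At week 3, 13 were higher and 11 lower (8 and 10 with the replicate block, where 21.1% of all genes were called), and at week 4, 28 were higher and 16 lower, beside the 27.2% and 48.4% of all genes called in those weeks. Their median log2 fold change was -0.04, 0.12, 0.07 and 0.42 at weeks 1 to 4.

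Of 10 receptors and co-receptors, 2 rose and 2 fell at week 3 (1 and 2 with the replicate block), and 6 rose and 4 fell at week 4, with median log2 fold changes of -0.05 and 0.47. Tgfbr1, the signalling type I receptor of TGF-beta, was at 100.3, 100.2, 78.9 and 91.9 CPM in radiated skin of week 4, against 48.6, 56.7, 56.6 and 58.8 CPM in control skin. Its groups did not overlap (log2 fold change 0.76, SE 0.10, adjusted p = 0.000237 by edgeR), while at week 3 the log2 fold change was 0.07 (adjusted p = 0.81). Tgfbr2, the ligand-binding type II receptor, rose by 0.37 at week 4 (adjusted p = 0.0134) and stood at -0.36 at week 3 (adjusted p = 0.0958). In the fit of all 35 libraries the week 4 call of Tgfbr2 was lost (adjusted p = 0.12).

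The 4 receptor genes that fell at week 4 encode receptors of activins and related ligands. Acvr1b, the type I receptor of activins, fell by 0.59 on the log2 scale (SE 0.08, adjusted p = 0.000301 by edgeR), and the type II receptors Acvr2a and Acvr2b fell by 0.95 (adjusted p = 1.82e-05) and by 1.32 (adjusted p = 0.000564). Acvr1c, a type I receptor of activin B and related ligands that is well expressed in fat, was at 11.4, 14.0, 10.2 and 11.1 CPM against 50.8, 40.3, 28.6 and 58.4 CPM, a decrease of 1.93 (adjusted p = 7.55e-05). Radiated and control libraries of these 4 genes did not overlap at week 4. With these included, 28 of the 62 other pathway genes lay wholly above control skin that week and 13 wholly below. The share of such genes over all genes was not counted. Acvr1, a type I receptor mainly of BMP ligands that can also bind activins, rose by 0.59 (adjusted p = 0.000672) and is named after its values were seen. At week 3 Acvr2a (-0.74, adjusted p = 0.0091) and Acvr1c (-1.81, adjusted p = 0.00431) had fallen, the former not with scaling by totals (adjusted p = 0.078), while Acvr1b was at 0.29 (adjusted p = 0.165).

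Eng and Acvrl1, co-receptor and type I receptor of TGF-beta family ligands in endothelium, rose by 1.73 (adjusted p = 0.000688 by edgeR) and 1.22 (adjusted p = 8.85e-05) at week 4. At week 3 the values were 1.73 (adjusted p = 0.0267) and 1.20 (adjusted p = 0.0318). The week 3 calls were lost without any one of the 4 control libraries, and for Acvrl1 also without radiated replicate 1 or 3 (adjusted p up to 0.072 for Eng and 0.0871 for Acvrl1). The Eng call was lost with the replicate block too (adjusted p = 0.0589). All 6 endothelial markers were called higher at week 4, with summed levels of 432 to 574 CPM in radiated and 187 to 315 CPM in control skin, and their part in these rises was not tested.

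Of the 5 SMAD transducers, 0 rose and 2 fell at week 3, and 1 rose and 3 fell at week 4, with median log2 fold changes of -0.32 and -0.23. Smad3 rose by 0.61 (adjusted p = 0.00226 by edgeR) at week 4, while Smad2, which carries the same signals, fell by 0.39 (adjusted p = 0.00407), and Smad5, a transducer of BMP signals, fell by 0.47 (adjusted p = 0.000944). The fall of the shared partner Smad4, by 0.23 (adjusted p = 0.0415), was lost with the replicate block (adjusted p = 0.11) and in 6 of 8 fits that left out 1 library, all but those without replicate 1 of either group (adjusted p up to 0.123). Smad2 and Smad5 had also fallen at week 3, by 0.52 (adjusted p = 0.0132) and 0.74 (adjusted p = 0.00556), calls that scaling by totals did not make (adjusted p = 0.182 and 0.0557).

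Of 10 inhibitors and negative regulators, 1 rose and 1 fell at week 3 (0 and 0 with the replicate block), and 4 rose and 2 fell at week 4 (4 and 1 with the block), with median log2 fold changes of 0.19 and 0.42. Pmepa1, a TGF-beta-induced gene whose product traps SMADs, was at 217, 204, 214 and 197 CPM in radiated skin of week 4, against 28.4, 32.7, 27.7 and 25.3 CPM, groups far apart and each narrow (log2 fold change 2.87, SE 0.09, adjusted p = 2.2e-07 by edgeR). Skil, which encodes the SMAD co-repressor SnoN, rose by 1.22 (adjusted p = 2.51e-05), the inhibitory SMAD gene Smad7 by 0.87 (adjusted p = 0.00014) and the ubiquitin ligase gene Smurf1 by 0.64 (adjusted p = 0.000412). Fstl3, a relative of follistatin that also binds activins, fell by 0.49 (adjusted p = 0.011), a call lost in the fit of all 35 libraries (adjusted p = 0.143). At week 3, Smad7 was at 0.55 (adjusted p = 0.095), the inhibitory SMAD gene Smad6 rose by 1.04 (adjusted p = 0.0202, and 0.0691 with the replicate block) and the ubiquitin ligase gene Smurf2 fell by 0.39 (adjusted p = 0.0249, and 0.0792 with the replicate block). Both calls were also lost in fits that left out 1 library, without control replicate 1, 3 or 4 for Smad6 (adjusted p up to 0.0599) and without radiated replicate 2 or any control library for Smurf2 (adjusted p up to 0.0612), and Smurf2 was not called with scaling by totals (adjusted p = 0.377).

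Partners of latency and activation (13 genes) gave 7 rises and 1 fall at week 3 and 9 rises and 1 fall at week 4, with median log2 fold changes of 1.11 and 1.62. Thbs1, encoding thrombospondin-1, an activator of latent TGF-beta, rose by 1.69 at week 3 (adjusted p = 0.0239 by edgeR) and by 2.80 at week 4 (adjusted p = 6.88e-06). The matrix protease gene Mmp14 rose by 1.93 (adjusted p = 0.00938) and 2.54 (adjusted p = 3.15e-06). Lrrc32, encoding GARP, which holds latent TGF-beta on cell surfaces, rose by 1.58 (adjusted p = 0.0221) and 2.68 (adjusted p = 1.68e-05). Fbn2, a fibrillin gene, rose by 2.80 at week 4 (adjusted p = 8.27e-06), and Bmp1, whose protease product cleaves procollagens and latency proteins, rose by 1.68 at week 3 (adjusted p = 0.00515). The week 3 call of Thbs1 was lost without radiated replicate 1 or 2 or control replicate 2, 3 or 4 (adjusted p up to 0.0663). That of Lrrc32 was lost without control replicate 2 or 3 (adjusted p up to 0.0617) and with the replicate block (adjusted p = 0.0572).

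Of 12 response genes, 3 rose and 1 fell at week 3 (1 and 1 with the replicate block), and 7 rose and 2 fell at week 4, with median log2 fold changes of 0.43 and 1.91. Tnc, encoding tenascin-C, a matrix protein of wounds, was at 3178, 2655, 3887 and 5155 CPM in radiated skin of week 4, against 7.99, 8.45, 5.38 and 8.46 CPM (log2 fold change 8.95, SE 0.30, adjusted p = 2.2e-07 by edgeR). The 2 kinds of skin stood far apart.

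The collagen genes Col1a1 and Col3a1 rose by 4.10 (adjusted p = 9.54e-06 by edgeR) and 3.73 (adjusted p = 2.52e-05) at week 4. Ccn2, encoding connective tissue growth factor, which is also counted among TGF-beta targets, fell instead, by 1.08 at week 3 (adjusted p = 0.00907) and by 1.14 at week 4 (adjusted p = 0.000701), with radiated libraries of week 4 at 20.1, 26.7, 25.0 and 17.6 CPM against 35.3, 61.4, 49.7 and 51.4 CPM. At week 3 Tnc had risen by 7.46 (adjusted p = 0.000641), while the rise of the collagen cross-linking enzyme gene Lox (1.32, adjusted p = 0.0303) was lost with the replicate block (adjusted p = 0.0526). It was also lost without any one control library or radiated replicate 1 or 3 (adjusted p up to 0.0817).

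Of 12 other ligands of the family, 9 were tested at week 3 and 8 at week 4. At week 3, 0 rose and 4 fell, and at week 4, 1 rose and 4 fell, with median log2 fold changes of -0.37 and -0.71. Bmp4 and Bmp2, ligands of the BMP branch, fell by 2.63 (adjusted p = 4.44e-05 by edgeR) and 2.42 (adjusted p = 1.83e-05) at week 4, and Gdf11 rose by 1.55 (adjusted p = 0.000583). At week 3 Bmp6, Bmp2 and Bmp4 fell by 1.74 (adjusted p = 0.00515), 1.47 (adjusted p = 0.0111) and 1.27 (adjusted p = 0.00196), and the Bmp2 call was lost without the libraries with high hair markers (adjusted p = 0.0508). Mstn, the muscle ligand myostatin, fell by 5.09 at week 3 (adjusted p = 0.00073) and 5.07 at week 4 (adjusted p = 0.000678). Of the 8 skeletal muscle markers, 7 fell at week 3 and 5 at week 4 (7 and 2 with the replicate block), and their part in the Mstn difference was not tested.

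**Figure D4:**
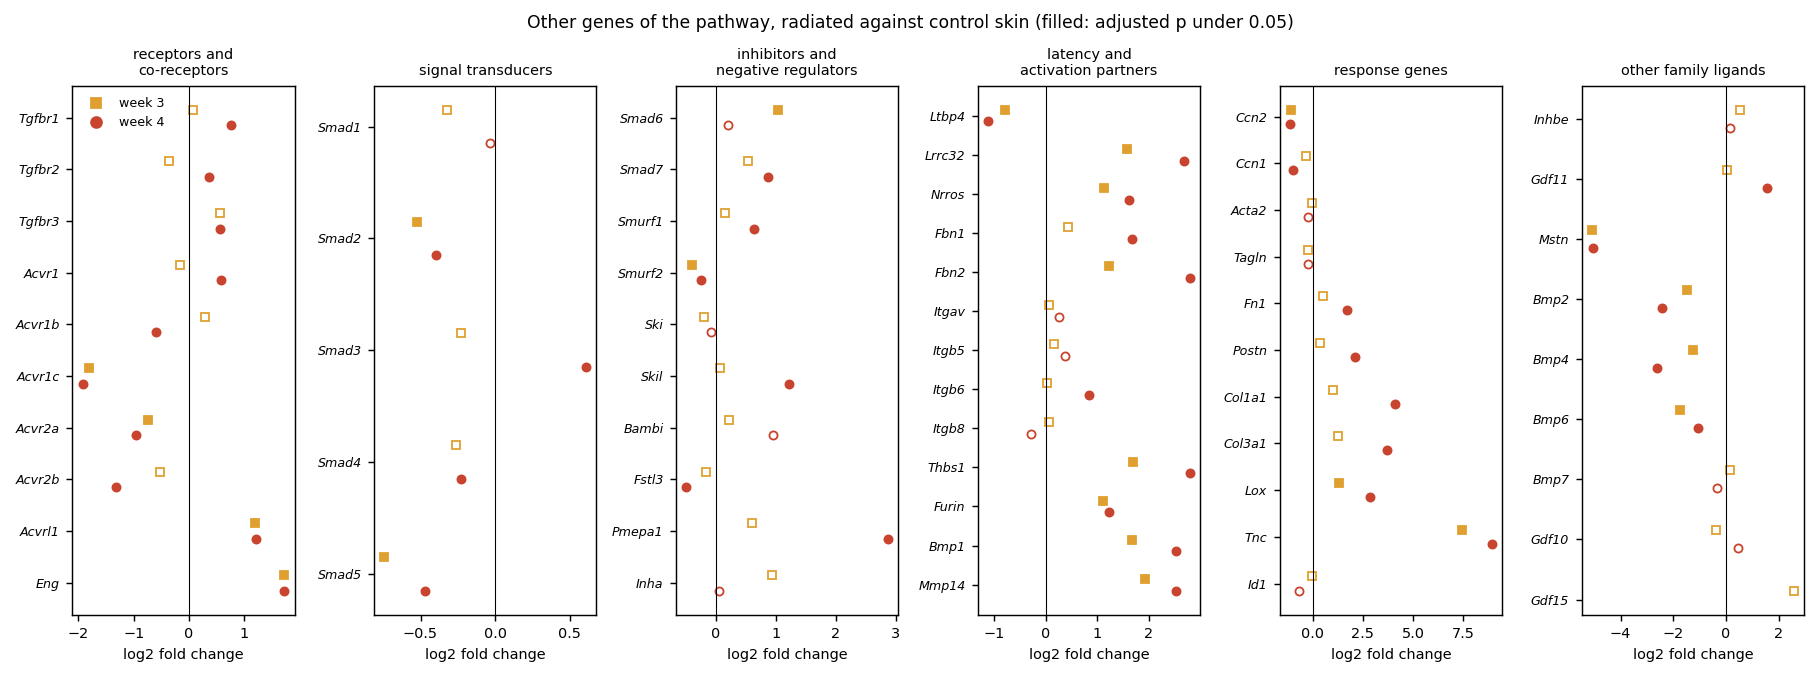
Log2 fold change of radiated against control skin for tested genes of the other pathway lists, 1 panel per list, with squares for week 3 and circles for week 4; filled symbols have an adjusted p under 0.05 by edgeR. Tnc lies at 7.46 and 8.95, and Mstn at -5.09 and -5.07, and the receptor panel holds filled week 4 circles on both sides of 0.

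Markers of other cell types moved in the same weeks. Macrophage markers (6 genes) summed to 779 to 2096 CPM in radiated and 301 to 843 CPM in control skin at week 3, and to 1031 to 1550 and 178 to 266 CPM at week 4, with 4 of 6 and 6 of 6 genes called higher. Neutrophil markers (6 genes) summed to 100 to 749 and 9 to 14 CPM at week 3 and to 205 to 436 and 10 to 14 CPM at week 4, with 5 of 5 tested genes higher in both weeks, and S100a8, Retnlg and Ly6g at 0 in some libraries. Platelet markers (5 genes, Ppbp and Gp9 at 0 in some libraries) summed to 24 to 94 and 14 to 20 CPM at week 3 and to 23 to 45 and 11 to 16 CPM at week 4, with 3 genes higher in each week and 1 lower at week 4. With the replicate block 1 platelet marker was higher at week 3, and 2 were higher and 1 lower at week 4. Fibroblast markers (8 genes) summed to 3915 to 5849 CPM in radiated and 1468 to 4082 CPM in control skin at week 3, with 3 higher and 1 lower, and to 7180 to 13349 and 1488 to 2407 CPM at week 4, with 7 of 8 genes higher, and their range did not overlap that of control skin. Keratinocyte markers (8 genes) summed to 6109 to 24688 and 14968 to 20061 CPM at week 3, with 1 higher and 3 lower, and to 12112 to 16953 and 22302 to 24914 CPM at week 4, with 2 higher and 5 lower. Hair markers were called in 0 of 8 tested genes at week 3 and were higher in 5 of 9 at week 4 (3 with the replicate block), with sums of 57 to 5869 CPM in radiated and 81 to 99 CPM in control skin. Sebaceous gland markers were lower in 1 of 5 tested genes at week 3 and 3 at week 4 (0 and 2 with the block), and adipocyte markers in 1 of 6 genes in each week (2 in each with the block). The part of these markers in the rises of Tgfb1, Inhba and Tgfbi was not tested.

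The genes whose log2 CPM followed each of the 10 genes most closely were sought among 16406 genes over the 35 libraries, which share the radiation weeks and tissue makeup described above, so that the values describe likeness only. For Tgfb1 they were Arrb2 (Pearson r = 0.959), Selplg, the P-selectin ligand of leukocytes (r = 0.958), and Arpc1b (r = 0.955). For Inhba they were Tnc (r = 0.964), the acute-phase gene Saa3 (r = 0.951) and Chst11 (r = 0.95). For Tgfbi they were Gab2 (r = 0.905), Antxr2 (r = 0.898) and Nceh1 (r = 0.882). These 3 genes had closer followers than the other 7.

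For Tgfb2 the closest were Htra1 (r = 0.843), Zfp704 (r = 0.819) and Sema3b (r = 0.811), and for Tgfb3 Sparcl1 (r = 0.808), Cacng7 (r = 0.796) and Hoxd8 (r = 0.784). For Inhbb they were Cyp1b1 (r = 0.856), Rdh10 (r = 0.821) and Spata13 (r = 0.795), and for Fst Loxl4 (r = 0.851), Cyth3 (r = 0.843) and Tnfaip6 (r = 0.833). For Ltbp1 they were Cd209d (r = 0.817), H2-Eb1 (r = 0.803) and Lpar1 (r = 0.798), for Ltbp2 Slit2 (r = 0.83), Spats2l (r = 0.821) and Flt4 (r = 0.82), and for Ltbp3 Smtn (r = 0.84), Farp1 (r = 0.811) and Kif26a (r = 0.809). Among the 10 genes themselves the closest pair was Tgfb1 and Inhba (r = 0.816), followed by Tgfb1 and Tgfbi (r = 0.738). Tgfb2 was closest to Tgfb3 (r = 0.549), and its r with Inhba was -0.41.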

How the data were processed

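Per the submitters' processing notes, Trim Galore 0.6.7, kallisto 0.46.2 and the build mm10 were used; their roles and the transcriptome release are not given in the sources used here. RNA came from biopsies kept in RNAlater and was extracted with an RNeasy kit, per the labels' protocols. The authors deposited estimated counts per gene, unscaled: between 29.5% and 32.5% of a library's values were not whole, and they were rounded here. Of 36106 genes, 7638 were at 0 everywhere. No 2 libraries were identical, and among 51 pairs within groups the lowest reduced chi-square was 21.2.

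Tests used edgeR 4.0.16 in R 4.3.3 (filterByExpr, TMM, glmQLFit, glmQLFTest), fitted on the groups compared alone; the script was tested on simulated data. The SE of a log2 fold change is its size over the root of F. CPM used 19813 genes, and log2 CPM a prior count of 2; genes compared for likeness had a mean of at least 1 CPM. Ratios used a pseudocount of 1. DESeq2 1.42.0, scaling by totals, no filter, 1 fit of all libraries, a replicate block and leaving out each library were alternatives, and leaving out libraries above 1000 CPM of hair markers was added after seeing the data.

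The pairing rests on 35 samples from 19 mice with shared numbers. In a check, deviations from group means of same-numbered radiated and control samples had a mean correlation of 0.081, 0.24, 0.078 and -0.024 at weeks 1 to 4. The lowest same-numbered correlations were -0.021, 0.18, -0.064 and -0.082. Samples of unlike number had means of -0.027, -0.079, -0.024 and 0.01, so that same-numbered samples were not more alike at week 4.

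The 10 genes and all lists were chosen with earlier results of these data known. All 10 are named in each comparison of 2 groups and each test over the weeks, though not with values in each, and steps between weeks name those called. Of each other list, up to 4 called genes with the largest change per week are named, with Acvr1 added after its values were seen and with Tgfbr1, Tgfbr2, Acvr1b, Acvr2a, Smad7, Fstl3 and Ccn2 whatever their values, and the 3 genes most like each of the 10 by Pearson r. A gene of the response list is counted but not reported by name here.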

Additional observations from a re-analysis of the deposited data

Results flagged for a closer look

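Within groups of 4, 1 library stood far from the others in 10 of 96 groups tested, by the gap to its nearest neighbour as a share of the group's range, where chance gives about 1 in 20. In radiated skin of week 1, replicate 2 was low for Tgfb2 (13.4 CPM, share 0.838) and Tgfb3 (21.6 CPM, share 0.856). In radiated skin of week 2, replicate 3 was high for Ltbp2 (47.5 CPM, share 0.917). At week 3, radiated replicate 3 was high for Ltbp3 (93.0 CPM, share 0.846) and replicate 4 low for Tgfbi (317 CPM, share 0.939). At week 4, radiated replicate 3 was high for Ltbp1 (116 CPM, share 0.9) and Ltbp3 (90.1 CPM, share 0.916). In control skin, Ltbp1 was high in replicate 1 of week 2 (87.5 CPM, share 0.908), Inhbb in replicate 4 of week 4 (92.8 CPM, share 0.941) and the log2 ratio of Tgfb3 to Tgfb1 in replicate 4 of week 1 (0.59, share 0.836).

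The radiated minus control difference differed between the weeks, by edgeR's F test of the interaction terms, for Inhba (adjusted p = 2.02e-05), a call kept in 4 of 4 fits that left out a replicate number. Tgfbi (adjusted p = 0.00589) kept the call in 2 of 4 such fits and Inhbb (adjusted p = 0.0138) in 1 of 4. Tgfb1 (adjusted p = 0.0487) kept it in 0 of 4 (adjusted p from 0.0744 to 0.307) and lost it with the replicate block (adjusted p = 0.0546). The fits without a number called 4.97% to 9.2% of all genes, against 15.6% with every number.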

How the results depend on the processing

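Counts of the 10 genes called moved by over 1.5 times under these alternatives, for which the cause was not tested; percentages in parentheses are the share of all genes that the same fit called. Radiated against control skin gave, at week 2, 2 with DESeq2 (4.23%), 1 with the fit of all 35 libraries (2.75%) and 1 with the replicate block (3.7%), against 0 (0.00577%), and at week 4, 4 with the fit of all libraries (35%), against 8 (48.4%). Against sham, radiated skin gave 1 (DESeq2, 6.78%) and 2 (all libraries, 6.18%) at week 1, against 0 (1.75%). At week 2 it gave 2 (totals, 5.35%), 4 (DESeq2, 13.8%), 5 (all libraries, 16.4%) and 0 (replicate block, 2.76%), against 1 (5.06%), and at week 3 it gave 5 (totals, 18.3%), 6 (DESeq2, 26.7%) and 7 (all libraries, 32.3%), against 3 (18.2%). Control against sham skin gave 4 (DESeq2, 16.6%), 0 (all libraries, 5.65%) and 0 (replicate block, 0%) at week 1, against 1 (4.92%), and 1 (all libraries, 7.87%) at week 2, against 0 (2.44%). It gave 3 (totals, 14.1%), 3 (DESeq2, 19.9%) and 2 (no filter, 8.44%) at week 3, against 1 (11.4%), and 4 (DESeq2, 10.3%), 1 (no filter, 3.19%) and 1 (all libraries, 3.01%) at week 4, against 0 (3.65%). Sham numbers belong to other mice, so a block pairs nothing there. Of the other pathway genes, DESeq2 gave 1 at week 1 (2.37%) and 6 at week 2, the fit of all libraries 4 and the replicate block 9 at week 2, against 0. For radiated against control skin, the replicate block moved no other count of the 10 genes by over 1.5 times. It moved the other pathway genes called higher at week 3 from 13 to 8 and the endothelial markers called higher that week from 2 to 0.

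Leaving out 1 library gave, for radiated against control skin, 0 to 2 of the 10 genes at week 2, 4 to 6 at week 3 and 7 to 8 at week 4, while 0% to 1.16%, 17.9% to 28.3% and 41.8% to 47.3% of all genes were called, and 0 to 1, 0 to 3, 16 to 28 and 42 to 46 other pathway genes at weeks 1 to 4. It gave 0 to 2, 2 to 5 and 5 to 7 for radiated skin against sham at weeks 2 to 4 (0.583% to 7.94%, 6.07% to 22% and 19.1% to 24.5%), and 0 to 4, 0 to 1, 1 to 4 and 0 to 3 for control skin against sham at weeks 1 to 4 (0% to 9.84%, 0% to 12.5%, 3.46% to 13.3% and 0% to 9.26%). Leaving out a number gave 1 to 3 for the interaction (4.97% to 9.2%), 3 to 5 for radiated skin (10.9% to 17.4%) and 0 to 5 for control skin (6.74% to 24.8%) over the weeks. The log2 ratio difference of Inhba to Fst at week 2 ran from -0.79 to 0.09.

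Directions turned only for genes without a call. With scaling by totals, log2 fold changes at week 1 were 0.046 for Tgfb2, 0.094 for Inhbb, 0.057 for Ltbp3 and 0.010 for Fst, and 0.041 for Fstl3 at week 3. Without the hair-marker libraries, week 1 gave 0.0020 for Inhbb, 0.014 for Ltbp3 and -0.039 for Tgfbi, which the replicate block put at -0.010. With 1 library left out, week 1 values ran from -0.22 to 0.20 for Tgfb2, -0.13 to 0.065 for Inhbb, -0.35 to 0.05 for Ltbp3, -0.072 to 0.15 for Tgfbi and -0.30 to 0.13 for Fst, week 2 values from -0.092 to 1.24 for Inhba and -0.34 to 0.35 for Inhbb, and week 3 values from -0.037 to 0.19 for Tgfbr1.

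Scaling by totals moved the median of all genes by 0.136, 0.0551, 0.236 and 0.089 at weeks 1 to 4 and gave 4054 higher and 1270 lower genes at week 3 (against 2408 and 2397) and 4900 and 3572 at week 4 (against 4321 and 4322). With 4 libraries per group, adjusted p-values near 0.05 turned on single libraries.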
